A study of Mus musculus with 2 samples.

Results

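Cluster C11 is the smaller of the pair of clusters that the deposited annotation calls CD8 T cells in a single-cell RNA sequencing study of mouse tumors, and its cells carried the transcripts of dividing cells. Its members were every cell that the annotation assigns to C11: 482 of 11456 cells, of which 306 came from the wild-type library and 176 from the mutant library. All 482 are annotated as CD8 T cells. The annotation divides the cells of the study into 22 clusters and 11 classes, and the method behind the clusters is not given in the sources used here. C11 was described against C06, the other CD8 T cell cluster (828 cells, 387 and 441 by library), and against C13, a cluster of cycling macrophages (434 cells, 159 and 275).

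The wild-type (WT) group consisted of mice with unmodified heat shock factor 1, labelled Hsf1-WT. The S303/7A group, labelled Hsf1-303-7, consisted of mice whose heat shock factor 1 has alanine in place of the serines at positions 303 and 307, and the series' design text calls such mice HSF1-enhanced. Tumors were engrafted in both groups, tumors of 4 mice are said to have been pooled, and living cells sorted with and without the leukocyte marker CD45 were mixed 5 to 1 before droplet libraries of 3′ transcript ends were made. The tumor line, strain, age and day of harvest are not given in the labels used here. Since the mutation is carried by the host, the label does not say that only T cells differ. There was 1 library per genotype, so no difference between genotypes has a replicate check, no p-value was computed, and every interval below is a 95% interval that covers counting error only.

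A CD8 T cell that meets its antigen divides several times and gives rise to killer cells. Dividing cells first copy their DNA in S phase, which takes replication forks, deoxynucleotides and new histones, and then separate the copies in mitosis, which takes cyclin-dependent kinases, condensins, kinetochores and the spindle. Transcripts of these programs are made mostly by E2F factors before and during S phase and by the MuvB, B-Myb and FoxM1 complexes later. In tumors, CD8 T cells under lasting antigen stimulation take on inhibitory receptors such as PD-1, and cells with this phenotype can still divide. Heat shock factor 1 is the transcription factor that turns on chaperone genes under protein stress, and phosphorylation of the serines replaced here is known to restrain it.

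Reads with the same unique molecular identifier (UMI) count as 1 captured transcript, and levels are given as CP10K, the mean over cells of UMIs per 10000 UMIs of the cell. Differences are log2 ratios of CP10K with 0.1 CP10K added to each side, which understates the ratio of low genes. For C11 against another cluster, the log2 ratio is the mean of the ratios within the WT and the S303/7A library. A ratio of summed UMIs, taken relative to all UMIs of the group, is given with its exact conditional interval where a result turns on it. A gene entered a comparison when at least 10% of the cells of 1 of the 2 groups held a UMI of it, and a list member when at least 5% did. The clusters were defined on the expression of these same cells, so C11 against C06 or C13 is a description of what was grouped together and not a test.

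C11 cells were captured at greater depth than C06 cells. The median C11 cell held 9747 UMIs in WT and 13510 in S303/7A, where single WT cells ranged from 1416 to 35043 and S303/7A cells from 3346 to 40864. The corresponding medians of C06 were 4577 and 7035, so a C11 cell held 2.13 times the UMIs of a C06 cell in WT and 1.92 times in S303/7A. The median C13 cell held 9330 and 18801. S303/7A C11 cells were 1.39 times as deep as WT C11 cells, and mitochondrial transcripts took a median of 2.22% and 2.18% of UMIs in C11. Of the cell barcodes, 48 occurred in both libraries, 3 of them on C11 cells, and the part of shared barcodes in the results was not tested.

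The annotated identity was set against its defining markers. Cd8a, a chain of the CD8 co-receptor, was found in 93.8% of WT and 93.8% of S303/7A C11 cells, against 3.77% and 4.73% of C13 cells of similar or greater depth. Mki67, the proliferation antigen, stood at 2.03 and 1.73 CP10K in C11 and at 0.166 and 0.149 in C06. Some markers of other lymphocytes were rare, but not all. Cd4 was found in 1.31% and 3.41% of C11 cells, Foxp3 of regulatory T cells in 1.31% and 4.55%, Trdc of gamma delta T cells in 6.54% and 2.84%, and Ncr1 of natural killer (NK) cells in 4.58% and 6.25%. No C11 cell held a UMI of Sox13, a transcription factor of gamma delta T cells. The NK marker Klre1 was common, found in 82.1% of WT and 84.8% of S303/7A C11 cells with a Cd8a or Cd8b1 UMI. Eomes, also looked up as an NK marker, was found in 10.7% and 27.9% of those cells. The constant gene Tcrg-C2, which is also transcribed in many CD8 T cells, was found in 40.2% of WT and 15.3% of S303/7A C11 cells.

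A small group of C11 cells held no CD8 transcripts. In WT, 16 of 306 C11 cells (5.23%, 3.02% to 8.35%) held no UMI of Cd8a or Cd8b1, and in S303/7A 11 of 176 did (6.25%, 3.16% to 10.9%). Of these, 14 WT and 8 S303/7A cells held a UMI of the NK receptor genes Ncr1 or Klrb1c, and C06 had 11 and 6 cells without CD8 transcripts, of which 1 and 0 held such a UMI. Tyrobp, the signaling adaptor of activating NK receptors, averaged 19.7 and 13.8 CP10K in the C11 cells without CD8 transcripts and 0.951 and 1.18 in the others. Cd3e, a chain of the T cell receptor complex, averaged 0.0684 and 0.732 CP10K against 4.12 and 4.66. Cd3g, another chain, was found in 6.25% of the WT and 63.6% of the S303/7A cells without CD8 transcripts. At most 2 UMIs of Cd3d, Cd3e and Cd3g were held by 15 of the 16 WT and 8 of the 11 S303/7A cells. Part of the S303/7A cells thus carried CD3 transcripts. The C11 cells without CD8 transcripts held 45.9% and 74.5% of all Gzma UMIs of C11, 31.1% and 58.2% of the Gzmc UMIs and 34.2% and 27.0% of the Xcl1 UMIs. They carried cycle transcripts too, with Mki67 at 1.53 and 1.47 CP10K. Results that rest on them are given below with and without these cells, a setting chosen after their values were seen.

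Transcripts of macrophages, the most numerous immune cells of the study, were also found in C11. Lyz2, the lysozyme gene, was found in 60.1% of WT and 87.5% of S303/7A C11 cells. All 15 genes of the macrophage list lay above 0 in C11, and their summed level was 8.74 CP10K in WT and 17.4 in S303/7A. The sum was 12.8 and 22.8 in C06 and 302 and 425 in C13. It was thus higher in S303/7A than in WT in each of these clusters. In S303/7A, 1 C11 cell held 2221 of the 2235 UMIs of the hemoglobin gene Hbb-bs, and WT C11 held 3 such UMIs in all.

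C11 differed from C06 mainly by genes that stood higher in C11. Of 7445 genes measured, 339 were higher by 2-fold or more in C11 (4.55%) and 44 were lower by 2-fold or more (0.591%), with a median log2 ratio of 0.02 over all genes. Over these genes 52.9% lay above 0 and 47.1% below. With a pseudocount of 1 CP10K the counts were 54 and 3, and with 0.01 they were 575 and 141. The 12 genes with the highest ratios were all genes of the cell cycle. They were Hist1h2ap 5.40, Pclaf 4.26, Cenpf 4.05, Birc5 3.81, Ccna2 3.77, Stmn1 3.70, Ube2c 3.69, Spc24 3.61, Rrm2 3.57, Nusap1 3.43, Cdk1 3.36 and Cdca8 3.34 on the log2 scale. The 12 with the lowest ratios included genes of interferon response, memory and effector function, but not only these. The 12 were Slfn5 -1.87, Ccl5 -1.70, Ifit1 -1.62, Il7r -1.57, Ifit3 -1.53, Hopx -1.43, Kdm5b -1.35, Ccl1 -1.34, Ypel3 -1.33, Ms4a4c -1.29, Ifit3b -1.27 and Ly6c2 -1.27. In WT, 3 cells held 72.0% of the Ccl1 UMIs of C06 and 3 cells held 89.0% of those of C11.

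**Figure D1:**
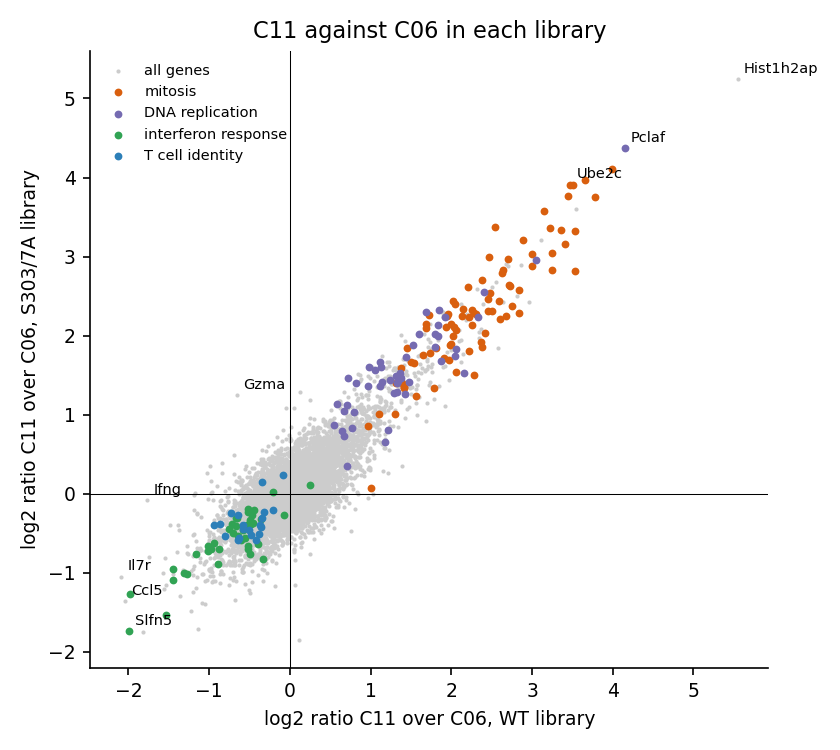
Each point is a gene, with its log2 ratio of C11 over C06 in the WT library on the x axis and in the S303/7A library on the y axis, and gene lists in color. Cycle genes lie at the upper right, up to Hist1h2ap at 5.55 in WT and 5.25 in S303/7A, and Ifng lies lower in WT (-1.77) than in S303/7A (-0.08).

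Genes of DNA replication were higher in C11 throughout the list. All 48 measured members of 49 lay above 0 (52.9% of all genes did), 38 of them by 2-fold or more (4.55% of all genes). The list's median log2 ratio was 1.37. Pclaf, a factor that binds the PCNA clamp at replication forks, averaged 9.77 CP10K in WT C11 cells and 7.52 in S303/7A C11 cells, against 0.456 and 0.268 in C06. Its ratio of summed UMIs was 22.4 (18.0 to 28.2) within WT and 25.2 (20.7 to 31.1) within S303/7A. Pclaf was therefore low but not absent in C06, where it was found in 15.0% and 14.1% of cells, against 93.5% and 91.5% of C11 cells. Clspn, which signals from stalled forks to the checkpoint kinase, averaged 1.01 CP10K in WT C11 cells and 0.776 in S303/7A C11 cells, against 0.0337 and 0.0128 in C06 (log2 ratio 3.01). Subunits of the MCM helicase that unwinds DNA had log2 ratios from 1.31 for Mcm4 to 2.08 for Mcm5, with Mcm2 1.40, Mcm6 1.39, Mcm3 1.98 and Mcm7 2.0 between them. Pcna itself, the sliding clamp, averaged 1.37 CP10K in WT C11 cells and 1.49 in S303/7A C11 cells, against 0.410 and 0.332 in C06 (log2 ratio 1.70). The ligase gene Lig1 stood at 2.48, the flap nuclease gene Fen1 at 2.08 and the DNA methylation adaptor gene Uhrf1 at 2.28. The lowest members were Gins3 0.53, Rpa1 0.70, Rpa2 0.71 and Pole2 0.72.

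Enzymes that supply deoxynucleotides followed the same direction. All 23 measured genes of nucleotide synthesis lay above 0 (52.9% of all genes did). By 2-fold or more 12 were higher (4.55% of all genes were), with a median of 1.06. Rrm2, the regulated subunit of ribonucleotide reductase, averaged 1.79 CP10K in WT C11 cells and 1.70 in S303/7A C11 cells, against 0.0624 and 0.0487 in C06 (log2 ratio 3.57). Its partner subunit Rrm1 stood at 2.45, thymidine kinase Tk1 at 2.79, thymidylate synthase Tyms at 2.40 and the dUTP-hydrolysing enzyme Dut at 1.87. Members of de novo purine and pyrimidine synthesis differed less, with Paics 0.56, Umps 0.60, Gart 0.72 and Cad 0.76, and Cmpk1 was nearly level at 0.10.

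Histone genes were split between a few very high members and many sparsely captured ones. Of 47 genes, 35 were measured and 34 lay above 0 (52.9% of all genes did). By 2-fold or more 11 were higher (4.55% of all genes were), with a median of 0.62. Hist1h2ap, a replication-dependent H2A gene at chromosome 13, 21833026 to 21833507 (GRCm38, minus strand), averaged 13.8 CP10K in WT C11 cells and 12.3 in S303/7A C11 cells, against 0.197 and 0.227 in C06. The ratio of its summed UMIs was 72.7 (52.6 to 103) within WT and 60.5 (47.8 to 77.6) within S303/7A, and its log2 ratio was the highest of all genes measured. Cells of C11 differed widely in it, with a median of 11.1 CP10K in WT and 9.83 in S303/7A, the lowest cell at 0 in both libraries and the highest cells at 49.7 and 64.2 CP10K. The linker histone gene Hist1h1b stood at 2.79, the repair-linked variant H2afx at 2.66 and the variant H2afz, whose transcripts have poly(A) tails, at 1.70. Most replication-dependent histone transcripts lack a poly(A) tail, so 3′ end libraries primed on such tails capture them in part, and histone genes of near-identical sequence can share reads, so single histone genes are uncertain. The median of the list was 1.59 when the detection minimum was raised to 20% of cells.

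The genes of mitosis gave the broadest difference. All 83 genes of the list were measured, and all lay above 0 (52.9% of all genes did). By 2-fold or more 80 were higher (4.55% of all genes were), with a median of 2.23. The 3 members under 2-fold were Bub3 0.91, Kif18b 0.59 and Pttg1 0.54. Cenpf, a kinetochore protein that builds up before mitosis, averaged 2.34 CP10K in WT C11 cells and 2.02 in S303/7A C11 cells, against 0.0534 and 0.0232 in C06 and was found in 59.2% and 54.0% of C11 cells, against 2.33% and 1.59% of C06 cells. Birc5, the survivin subunit of the chromosomal passenger complex, averaged 5.41 CP10K in WT C11 cells and 4.11 in S303/7A C11 cells, against 0.336 and 0.170 in C06 (log2 ratio 3.81), and its partners Aurkb and Cdca8 stood at 2.71 and 3.34. Ube2c, the ubiquitin-conjugating enzyme of the anaphase-promoting complex, averaged 6.02 CP10K in WT C11 cells and 4.36 in S303/7A C11 cells, against 0.450 and 0.197 in C06 (log2 ratio 3.69). Its median over cells was 2.90 CP10K in WT and 1.24 in S303/7A, far below its mean in S303/7A.

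The mitotic kinase gene Cdk1 stood at 3.36 and its cyclins Ccna2, Ccnb1 and Ccnb2 at 3.77, 2.51 and 2.73. Motor and bundling proteins of the spindle ranged from Kif18b at 0.59 to Kif11 2.29, Prc1 2.56, Tpx2 3.17 and Nusap1 3.43. Condensin genes Smc2, Ncapg and Smc4 stood at 3.01, 2.29 and 1.40. Tubulin genes were among the higher members, with Tuba1b at 3.15, Tubb4b at 2.84 and Tubb5 at 2.51. Stmn1, which destabilizes microtubules and was among the marker genes of the cluster, averaged 13.3 CP10K in WT C11 cells and 11.4 in S303/7A C11 cells, against 1.08 and 0.670 in C06. Pttg1, the securin that holds back the protease of chromosome separation, stood apart from the rest of the list, since it averaged 2.67 CP10K in WT C11 cells and 1.05 in S303/7A C11 cells, against 1.28 and 0.991 in C06. Its C11 over C06 log2 ratio was 1.01 in WT and 0.07 in S303/7A.

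Promoters of these genes are shown because the members of the mitosis and replication lists were higher together. Sequences are from RefSeq on GRCm38.p6 and cover 250 bases before to 50 bases after the annotated start, read 5′ to 3′ on the gene's strand. The genes shown are the highest member of the mitosis list and the 2 highest of the replication list. Capitals in the Cenpf promoter mark matches of the CHR element, whose letters TTTGAA read TTCAAA on the opposite strand, and of CCAAT, which reads ATTGG there. Capitals in the Pclaf and Clspn promoters mark CCAAT in the same way and the E2F letters TTTGGCGC, which read GCGCCAAA on the opposite strand, or TTTCGCGC, which read GCGCGAAA there. Both strands were searched. None of these motifs contains another. The CHR is the element bound by MuvB complexes, CCAAT is bound by NF-Y, and E2F sites are bound by E2F factors. The Cenpf promoter lies at chr1:189688037-189688336 on the minus strand, the Pclaf promoter at chr9:65890073-65890372 on the plus strand and the Clspn promoter at chr4:126556730-126557029 on the plus strand.
Cenpf: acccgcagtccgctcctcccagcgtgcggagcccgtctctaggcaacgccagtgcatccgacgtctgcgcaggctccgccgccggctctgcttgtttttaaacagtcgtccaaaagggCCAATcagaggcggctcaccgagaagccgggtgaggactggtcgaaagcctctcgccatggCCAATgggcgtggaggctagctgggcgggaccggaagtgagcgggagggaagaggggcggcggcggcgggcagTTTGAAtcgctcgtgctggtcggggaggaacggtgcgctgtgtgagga
Pclaf: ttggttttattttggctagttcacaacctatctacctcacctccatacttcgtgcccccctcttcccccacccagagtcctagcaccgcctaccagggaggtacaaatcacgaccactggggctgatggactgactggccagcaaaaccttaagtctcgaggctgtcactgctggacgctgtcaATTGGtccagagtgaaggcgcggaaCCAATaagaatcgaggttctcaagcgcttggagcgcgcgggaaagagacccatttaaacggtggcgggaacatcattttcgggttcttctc
Clspn: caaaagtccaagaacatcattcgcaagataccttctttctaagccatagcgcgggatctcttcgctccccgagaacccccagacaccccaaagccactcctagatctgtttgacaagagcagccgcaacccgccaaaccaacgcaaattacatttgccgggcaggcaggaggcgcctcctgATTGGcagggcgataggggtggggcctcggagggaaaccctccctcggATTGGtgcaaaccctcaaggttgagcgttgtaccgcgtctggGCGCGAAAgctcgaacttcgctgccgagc
The Cenpf window held 1 CHR and 2 CCAAT matches, the Pclaf window 2 CCAAT matches and 0 E2F matches, and the Clspn window 2 CCAAT matches and 1 E2F match. The Birc5 window, at chr11:117848987-117849286 on the plus strand, held 0 CHR and 0 CCAAT matches, which says only that these letters were not in it. Of the 80 mitosis genes higher by 2-fold or more, 68 matched 74 promoters, and 62.2% of these held a CHR match against 17.9% of all 32851 promoters of this length. CCAAT was in 74.3% of them against 37.4% of all, and the E2F letters in 5.41% against 0.813%. Of the 38 replication genes higher by 2-fold or more, 31 matched 39 promoters, of which 25.6% held the E2F letters, 59.0% CCAAT and 12.8% the CHR letters. A match is a description of the letters and not a binding site. Since 80 of the 83 mitosis genes entered, the shares describe the mitosis list more than C11. They were not compared with other genes higher in C11.

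Regulators of the cycle lay on both sides of 0. Of 42 measured genes, 15 were higher in C11 by 2-fold or more (4.55% of all genes were). None was lower by 2-fold or more (0.591% of all genes were), and the median was 0.73. The highest were Fbxo5, the inhibitor of the anaphase-promoting complex, at 2.88 and the licensing inhibitor Gmnn at 2.06. Transcription factors of the cycle were also higher, with E2f1 1.55, E2f8 1.48, Foxm1 1.47 and Mybl2 1.44. The G1 kinase Cdk4 averaged 2.67 CP10K in WT C11 cells and 2.50 in S303/7A C11 cells, against 1.11 and 1.10 in C06 (log2 ratio 1.16), and the E cyclins stood at 1.28 for Ccne1 and 1.21 for Ccne2. D cyclins, which start the cycle with Cdk4 and Cdk6, did not follow. Ccnd2 averaged 0.859 CP10K in WT C11 cells and 1.01 in S303/7A C11 cells, against 1.97 and 1.70 in C06 (log2 ratio -0.90), Ccnd3 stood at -0.26 and Cdk6 at 0.18. Of the regulators, 10 of 42 lay below 0, among them the antiproliferative Btg1 at 4.72 CP10K in WT C11 cells and 4.12 in S303/7A C11 cells, against 9.37 and 8.15 in C06 (log2 ratio -0.97), Btg2 at -0.91, the pocket protein Rbl2 at -0.50 and the inhibitor Cdkn1b at -0.21. The INK4 inhibitor genes Cdkn2c, Cdkn2d and Cdkn2a lay above 0 at 1.42, 0.86 and 0.90.

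Genes of the apoptosis and DNA damage list lay on both sides of 0. Of its members, 5 of 30 genes were higher by 2-fold or more (4.55% of all genes were). In the other direction 1 was lower by as much (0.591% of all genes were), and the median was 0.06. The 1 lower gene was Bcl2, the survival factor, at 0.702 CP10K in WT C11 cells and 0.547 in S303/7A C11 cells, against 1.61 and 1.21 in C06 (log2 ratio -1.06). The pro-apoptotic Bcl2l11 stood at -0.46, and the repair genes Brca1 and Brca2 at 1.16 and 1.13.

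Growth genes were higher in C11 by smaller ratios than cycle genes. All 28 measured genes of the list of MYC targets and ribosome biogenesis lay above 0, 5 by 2-fold or more, and the median was 0.67. Over all genes 52.9% lay above 0 and 4.55% were higher by 2-fold or more. Its highest members were the nuclear transport genes Ranbp1 at 1.62 and Ran at 1.58, Cdk4, the spermidine synthase Srm at 1.09 and the nucleolar Nop58 at 1.01. The transcript of Myc itself was level at 0.04. Respiratory chain genes lay above 0 for 56 of 65 members with a median of 0.27 and none past 2-fold, and Cycs, cytochrome c, was the highest at 0.80. Glycolysis genes were close to level with a median of 0.09, from Ldha at 0.72 to the glucose transporter Slc2a3 at -0.51.

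Chaperone genes, the known targets of heat shock factor 1, showed 1 member past 2-fold. Of 24 measured genes 17 lay above 0, against 52.9% of all genes, and the median was 0.22. Hsp90aa1, the inducible HSP90, averaged 5.98 CP10K in WT C11 cells and 5.44 in S303/7A C11 cells, against 2.56 and 2.37 in C06 (log2 ratio 1.18). The HSP90 co-chaperones Fkbp4 and Ptges3 stood at 0.82 and 0.79, the mitochondrial chaperones Hspd1 and Hspa9 at 0.77 and 0.67, and Hsf1 itself at -0.06. The TRiC chaperonin subunits lay above 0 in 7 of 7 with a median of 0.29. The genes seen most often under acute heat shock did not stand out, with Dnajb1 at 0.06 and Hsph1 at 0.10.

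Genes of T cell identity took a smaller share of UMIs in C11 than in C06. Of 20 measured genes 19 lay below 0, against 47.1% of all genes, none by 2-fold or more, and the median was -0.48. Cd3e averaged 3.91 CP10K in WT C11 cells and 4.42 in S303/7A C11 cells, against 5.57 and 6.15 in C06, and Cd8a averaged 7.74 CP10K in WT C11 cells and 6.98 in S303/7A C11 cells, against 9.99 and 9.20 in C06. The exception was Cd5, a receptor that dampens antigen signaling, at 0.07. A lower share did not mean fewer molecules per cell, since C11 cells held about 2 times the UMIs of C06 cells. Cd3e gave 3.78 UMIs per WT C11 cell and 2.62 per WT C06 cell, and 5.95 against 4.32 in S303/7A. All 20 identity genes gave more UMIs per cell in C11 in both libraries, with a median ratio of 1.47 in WT and 1.43 in S303/7A. The same median ratios were 28.6 and 31.9 for mitosis, 1.59 and 1.42 for inhibitory receptors, and 1.13 and 1.06 for naive and memory genes.

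Effector genes mostly took a smaller share of UMIs in C11 than in C06. Of 26 measured genes 23 lay below 0, 3 by 2-fold or more and 1 above by 2-fold or more, with a median of -0.42. Over all genes 47.1% lay below 0, 0.591% were lower by 2-fold or more and 4.55% higher. The chemokine gene Ccl5 averaged 17.4 CP10K in WT C11 cells and 13.5 in S303/7A C11 cells, against 72.2 and 34.7 in C06, with ratios of summed UMIs of 0.253 (0.244 to 0.262) within WT and 0.385 (0.370 to 0.402) within S303/7A. Ccl5 was also lower in UMIs per cell, 15.5 against 29.4 in WT and 16.8 against 22.9 in S303/7A. Most of the list was not, since 17 of the 26 genes gave more UMIs per cell in C11 in WT and 20 did in S303/7A. The median ratios of UMIs per cell were 1.26 and 1.45, and 4 genes gave fewer in both libraries. Granzyme B, the protease that kills target cells, was close to level, with Gzmb at 11.7 CP10K in WT C11 cells and 7.28 in S303/7A C11 cells, against 14.6 and 6.33 in C06, and perforin (Prf1) stood at -0.35. The growth factor gene Csf1 stood at -1.23. Ifng, the gene of interferon gamma, averaged 2.37 CP10K in WT C11 cells and 1.88 in S303/7A C11 cells, against 8.29 and 2.0 in C06, so its log2 ratio was -1.77 in WT and -0.08 in S303/7A. In WT C06, 3 of the 207 cells with an Ifng UMI held 62.4% of its 1480 UMIs, so the WT ratio rests on few C06 cells. Il2 had a log2 ratio of -2.23 that rested on WT, where 1 C06 cell held 420 of 517 UMIs, and it stood at 0.0372 and 0.0375 CP10K in S303/7A.

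The granzyme genes that C11 shares with NK cells depended on the cells without CD8 transcripts. Gzmc averaged 2.93 CP10K in WT C11 cells and 4.42 in S303/7A C11 cells, against 1.28 and 1.25 in C06 with a log2 ratio of 1.44, which was 0.94 without those cells. Gzma had a log2 ratio of 0.30 with all cells and of -1.07 without them. In Xcl1, a chemokine of dendritic cell recruitment, the ratio moved from 0.16 to -0.39. Gzmb and Ifng stood at -0.22 and -0.69 in this setting. The setting also left out the 11 WT and 6 S303/7A C06 cells without CD8 transcripts. Ifng averaged 2.46 CP10K in the WT and 1.95 in the S303/7A C11 cells with CD8 transcripts, close to its means over all C11 cells. The part of each cluster in these shifts was not tested.

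C11 cells carried the inhibitory receptor genes of stimulated tumor T cells at levels slightly under those of C06. Pdcd1, which encodes PD-1, averaged 3.65 CP10K in WT C11 cells and 4.09 in S303/7A C11 cells, against 4.72 and 5.45 in C06, and Tox, a transcription factor of exhausted T cells, averaged 2.12 CP10K in WT C11 cells and 1.87 in S303/7A C11 cells, against 2.43 and 2.64 in C06. Of 27 measured genes 23 lay below 0 (47.1% of all genes did), none past 2-fold in either direction, with a median of -0.33. The receptors Lag3, Havcr2 and Tigit stood at -0.76, -0.40 and -0.41, while Tnfrsf9, the 4-1BB co-stimulator, was level at 0.02. The median Pdcd1 level over C11 cells was 2.98 CP10K in WT and 3.83 in S303/7A.

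Genes of naive and memory T cells lay lower in C11 as well. Of 15 measured genes 13 lay below 0 and 3 were lower by 2-fold or more, with a median of -0.62. Over all genes 47.1% lay below 0 and 0.591% were lower by 2-fold or more. Il7r, the receptor of the survival cytokine interleukin 7, averaged 0.153 CP10K in WT C11 cells and 0.127 in S303/7A C11 cells, against 0.978 and 0.370 in C06, with ratios of summed UMIs of 0.179 (0.122 to 0.256) within WT and 0.338 (0.213 to 0.520) within S303/7A. Ly6c2, a memory marker, averaged 4.76 CP10K in WT C11 cells and 4.52 in S303/7A C11 cells, against 16.2 and 7.95 in C06, and Bcl2 was the third. Slamf6 and Ccr7 stood at -0.97 and -0.89. Genes of tissue residence and migration lay below 0 in 14 of 15 with a median of -0.59, and the chemokine receptor Cxcr6 was the lowest at -0.90. Cytokine receptors and co-stimulators lay below 0 in 26 of 29, with the co-stimulator Icos lowest at -1.18 and Il2rb, a chain of the interleukin 2 receptor, level at 0.04. These are shares of UMIs. Per cell, 27 of the 29 gave more UMIs in C11 in WT and 28 did in S303/7A, with median ratios of 1.48 and 1.39. Among the 15 residence and migration genes 13 gave more in each library, with median ratios of 1.37 and 1.32. Hopx, a homeodomain protein of differentiated effector T cells, averaged 1.02 CP10K in WT C11 cells and 0.156 in S303/7A C11 cells, against 2.38 and 0.744 in C06 (log2 ratio -1.43).

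Interferon response genes were lower in C11 almost throughout their list. Of 45 measured genes 44 lay below 0 and 7 were lower by 2-fold or more, with a median of -0.58. Over all genes 47.1% lay below 0 and 0.591% were lower by 2-fold or more. Slfn5, of the schlafen family, averaged 0.0511 CP10K in WT C11 cells and 0.0629 in S303/7A C11 cells, against 0.503 and 0.446 in C06, with ratios of summed UMIs of 0.116 (0.0633 to 0.199) within WT and 0.146 (0.0776 to 0.254) within S303/7A. Ifit1, an interferon-induced RNA-binding protein, averaged 0.291 CP10K in WT C11 cells and 0.439 in S303/7A C11 cells, against 1.44 and 1.20 in C06, and Ifit3 averaged 0.568 CP10K in WT C11 cells and 0.492 in S303/7A C11 cells, against 1.84 and 1.61 in C06. Samhd1, which degrades deoxynucleotides and restricts viruses, stood at -1.21, the transcription factor Irf7 at -0.89, and the 1 gene above 0 was Irf8 at 0.18. Per cell, 5 of the 45 gave fewer UMIs in C11 than in C06 in both libraries, and the median ratio of UMIs per cell was 1.28 in WT and 1.36 in S303/7A. Genes of the MHC class I pathway, many of them interferon targets, were nearer level with a median of -0.21. Early response genes that cell dissociation is known to induce lay lower too, with a median of -0.29 and Jun at -0.68, and macrophage genes lay below 0 in 14 of 15 with a median of -0.47, and their part in the lower interferon values was not tested.

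C11 was not uniform, and its cells spread between a replication state and a mitosis state. Each cell's UMIs of the mitosis list were divided by its UMIs of the replication and histone lists, and the cells were cut into 3 equal groups over both libraries. The cuts lay at log2 values of -0.21 and 0.65, with 79 and 105 cells within 0.25 of them, so the groups are ranges of a continuum. The replication-high range held 94 of 306 WT cells (30.7%, 25.6% to 36.2%) and 67 of 176 S303/7A cells (38.1%, 30.9% to 45.7%). The middle range held 35.6% and 29.0%, and the mitosis-high range held 33.7% and 33.0%. The intervals of the libraries overlapped in the replication-high range. Depth differed little along the continuum, with median UMIs of 8841.5, 9966 and 10378 in WT and 12503, 14694 and 14148 in S303/7A.

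**Figure D2:**
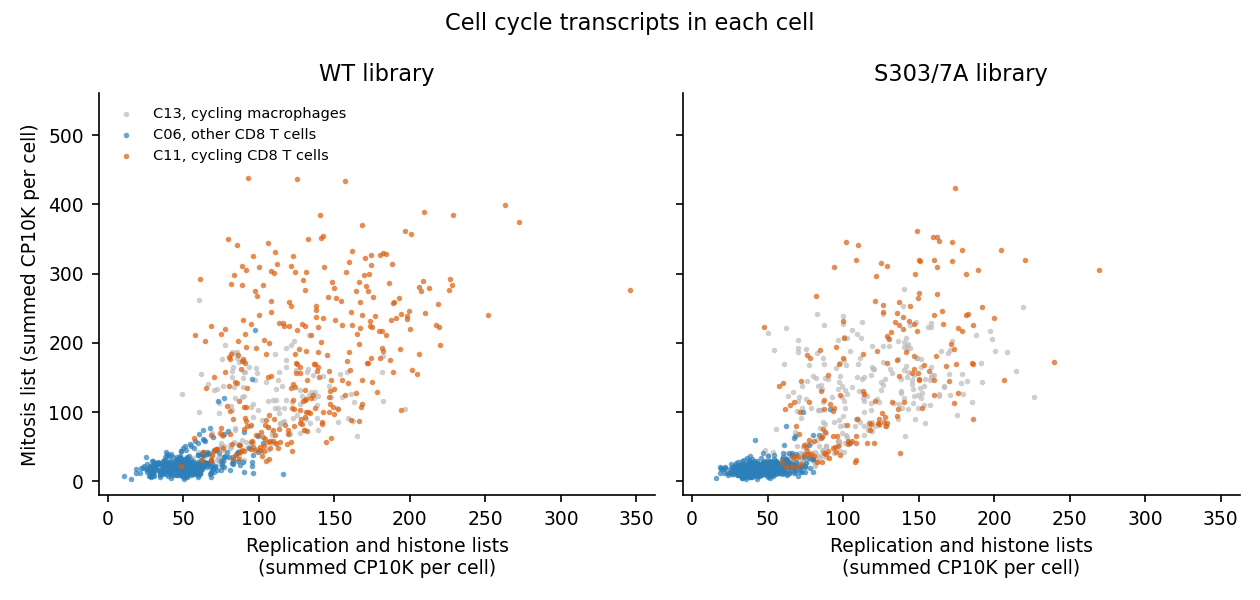
Each point is a cell, with its summed CP10K of the replication and histone lists on the x axis and of the mitosis list on the y axis, for the WT and S303/7A libraries in separate panels, C11 in orange, C06 in blue and C13 in grey. Most C06 cells lie low on the mitosis axis but not at 0 on the x axis. Their histone list alone averaged 41.8 CP10K in WT and 39.6 in S303/7A, against 94.3 and 87.6 in C11. C11 and C13 cells spread along both axes.

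Genes outside the lists that formed this ordering differed along it as well. Toward replication were the cell division gene Cdca7, which averaged 0.752 and 0.734 CP10K in the replication-high range and 0.0829 and 0.0542 in the mitosis-high range, the spermidine synthase Srm, the repair nuclease Apex1, the deoxycytidine kinase Dck and the fork protein Atad5. Toward mitosis were the tubulin gene Tuba1c, with a mitosis over replication log2 ratio of 2.52, Aspm of the spindle pole at 2.12, the importin Kpna2 at 2.09, the centrosomal kinase Nek2 at 1.97 and the cytokinesis gene Cep55 at 2.20. The ordering separated the replication list (median -0.92) but not the histone list, although both are in its denominator. The histone median was 0.50, toward mitosis. The name replication-high thus refers to the replication list and not to histones. No median or share over all genes is given here for this ordering. Ribosome biogenesis genes lay toward replication, with a list median of -0.63. Gene lists of T cell function differed less, at 0.21 for identity, 0.16 for effector genes, -0.01 for inhibitory receptors and 0.02 for interferon response. MHC class I genes stood at 0.39. Gzma, of which few cells hold most UMIs, stood at -1.79.

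Set against the cycling macrophages of C13, C11 was closer in cycle genes than in lineage genes. Of 8957 genes measured, 583 were higher in C11 by 2-fold or more (6.51%) and 1006 were lower (11.2%), with a median over all genes of -0.00. Pseudocounts of 1 and 0.01 CP10K gave 100 and 1014 genes higher and 192 and 1731 lower. Of the 83 mitosis genes, 5 were higher by 2-fold or more, none lower, 74 lay above 0 (50.0% of all genes did), and the median was 0.37. The libraries differed here, since WT alone gave 17 genes higher by 2-fold or more with a median of 0.56, and S303/7A alone gave 2 higher and 1 lower with a median of 0.28. The 5 by the mean of both libraries were Hmgb2 1.5, Cenpk 1.16, Tubb4b 1.10, Pttg1 1.05 and Smc4 1.01, and the lowest of the list was the cytokinesis scaffold Anln at -0.74. Replication genes had a median of 0.40 with 4 of 48 past 2-fold, among them the histone mRNA-binding Slbp at 1.34 and the primase Prim1 at 1.22, and histones had a median of 0.25. Mki67 averaged 2.03 CP10K in WT C11 cells and 1.73 in S303/7A C11 cells, against 1.55 and 1.78 in C13, and Top2a, the topoisomerase that untangles chromosomes, averaged 4.54 CP10K in WT C11 cells and 3.62 in S303/7A C11 cells, against 2.91 and 2.94 in C13. Hist1h2ap averaged 13.8 CP10K in WT C11 cells and 12.3 in S303/7A C11 cells, against 7.72 and 8.17 in C13 (log2 ratio 0.71).

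Single cycle genes nevertheless differed between the dividing lymphocytes and the dividing macrophages. Dut averaged 7.00 CP10K in WT C11 cells and 6.14 in S303/7A C11 cells, against 1.74 and 1.5 in C13 (log2 ratio 1.95), and Rrm2 and Tyms stood at 1.18 and 1.02, while Tk1 and Rrm1 were level at -0.07 and 0.01. Among regulators, Ccnd1, a D cyclin that T cells hardly express, averaged 0.218 CP10K in WT C11 cells and 0.144 in S303/7A C11 cells, against 2.14 and 1.46 in C13. The p53 target and kinase inhibitor Cdkn1a averaged 0.327 CP10K in WT C11 cells and 0.389 in S303/7A C11 cells, against 2.20 and 2.23 in C13 (log2 ratio -2.34). Higher in C11 were Cdkn2a at 1.60, Cdk6 at 1.31, Rbl2 at 1.18, Fbxo5 at 1.17, the transcription factor Myb at 1.13 and Trp53 at 1.08. Glycolysis genes had a median of 0.63 with 7 of 23 past 2-fold, including the aldolase gene Aldoa at 1.27 and Ldha at 1.08. Of all genes, 6.51% were higher in C11 than C13 by 2-fold or more and 11.2% were lower.

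Lineage genes separated C11 from C13 by far larger ratios. Of 21 T cell identity genes 20 were higher by 2-fold or more (6.51% of all genes were), with a median of 4.49. All 15 macrophage genes were lower by 2-fold or more with a median of -4.33. The 12 highest genes were Nkg7 6.06, Trbc2 6.05, Cd3g 5.98, Cd8a 5.68, Cd8b1 5.40, Trbc1 5.38, Klrd1 5.37, Ptprcap 5.33, Trac 5.30, Gzmb 5.16, Cd3d 5.10 and Cxcr6 5.06. They are chains of the T cell receptor complex and CD8, granule genes (Nkg7, Gzmb), the killer lectin receptor Klrd1, a CD45-associated protein (Ptprcap) and a chemokine receptor. The 12 lowest were Pf4 -5.40, C1qa -5.25, C1qc -5.14, Ccl12 -5.08, C1qb -5.04, Fcrls -5.03, Lgmn -4.96, Ccl7 -4.89, Mrc1 -4.87, Ccl2 -4.83, Lyz2 -4.82 and Apoe -4.70, which encode complement C1q, chemokines, scavenger receptors and lysosomal and lipid transport proteins of macrophages. C1qa averaged 0.808 CP10K in WT C11 cells and 1.81 in S303/7A C11 cells, against 44.3 and 57.0 in C13, so C11 held a small level of it. Interferon response genes were lower than in C13 too, with 34 of 46 below 0, 12 by 2-fold or more, and a median of -0.61. Over all genes of this comparison 50.0% lay below 0 and 11.2% were lower by 2-fold or more.

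The step from C06 to C11 and the step from other macrophages to C13 were set side by side. The median log2 ratio of the mitosis list was 2.23 for C11 over C06 and 1.61 for C13 over the other macrophage cells. For replication the medians were 1.37 and 0.95, for nucleotide synthesis 1.06 and 0.63, and for ribosome biogenesis 0.67 and 0.36. Interferon response genes were lower in the cycling cluster of both lineages, at -0.58 and -0.35. Glycolysis genes stood at 0.09 in the T cells and at -0.49 in the macrophages. Whether these steps differ was not tested.

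**Figure D3:**
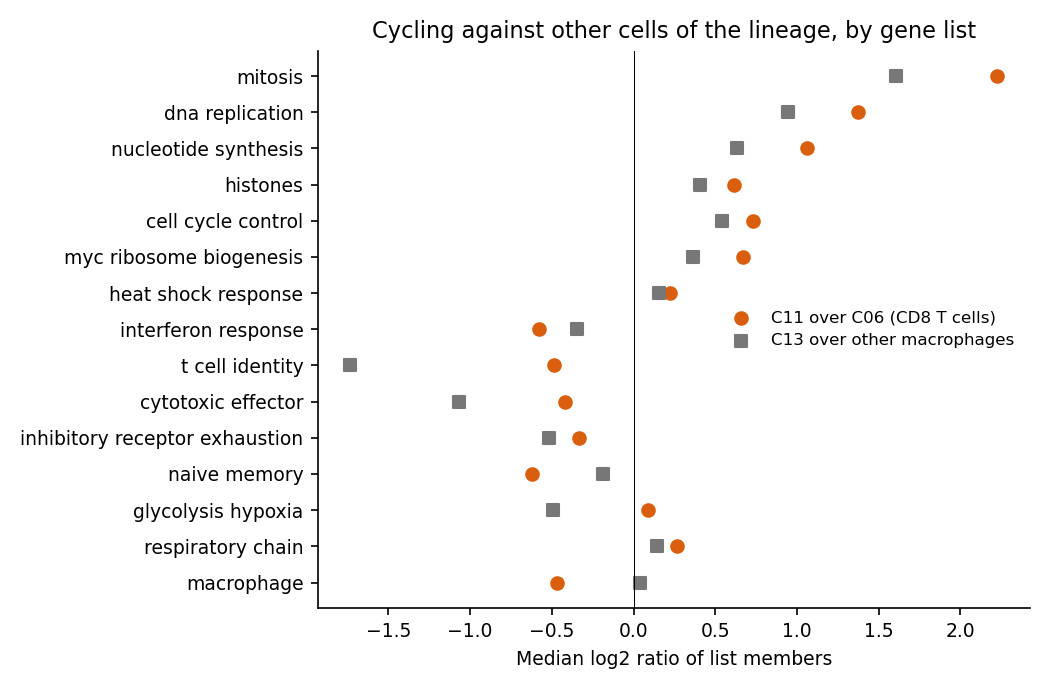
Each row is 1 of 15 gene lists chosen for the plot, with its median log2 ratio of C11 over C06 and of C13 over other macrophages on the x axis, as the mean of both libraries. Of these lists, mitosis lies farthest right in both, at 2.23 and 1.61, and the interferon list lies left of 0 in both.

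Between genotypes, few genes of C11 cells were 2-fold or more apart. Of 7396 genes measured, 27 were higher in S303/7A than in WT by 2-fold or more (0.365%) and 15 were lower (0.203%), and the median of all genes was 0.01. The counts depended on the pseudocount, with 2 and 2 genes at 1 CP10K and 106 and 56 at 0.01. These are differences between 2 libraries and not between genotypes with replicates. The same counts in C06 were 28 (0.513%) and 25 (0.458%) of 5463 genes, and in C13 17 (0.203%) and 22 (0.263%) of 8380 genes. The 12 highest genes in C11 were Tpm3-rs7 4.19, Penk 2.39, Apoe 1.62, Selenop 1.62, Pf4 1.49, Cd70 1.35, Ramp1 1.35, Igkc 1.28, Arhgap31 1.23, Utf1 1.17, Wfdc17 1.16 and Cap1 1.16. The 12 lowest were Hopx -2.13, Ociad2 -1.77, Lxn -1.72, Ltf -1.71, Ifitm3 -1.55, Ifitm1 -1.48, Tcrg-C2 -1.48, Gzma -1.29, Pttg1 -1.27, Tpm3 -1.26, Ppp1r3b -1.13 and Klri2 -1.06.

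Some of these genes also differed in the other clusters. Tpm3-rs7, a gene at chromosome 14, 113314608 to 113316754, averaged 0.0667 CP10K in WT and 2.94 in S303/7A in C11, and its log2 ratio was 4.02 in C06 and 4.09 in C13. Tpm3, the tropomyosin gene on chromosome 3 of which it is a related sequence, averaged 3.81 CP10K in WT and 1.54 in S303/7A, with ratios of -1.43 in C06 and -1.19 in C13. Reads of such near-identical copies can be assigned to either gene, so the split between them is uncertain. Cap1, an actin regulator, stood at 1.16 in C11, 1.29 in C06 and 0.73 in C13. The macrophage genes Apoe and Pf4 were higher in S303/7A C11 cells together with the whole macrophage list, of which 15 of 15 genes lay above 0 in C11 (51.2% of all genes did) with a median of 0.56, and 15 of 15 in C06 (49.2% of all genes) with a median of 0.54. In the macrophages of C13, 8 of 15 lay above 0 (57.0% of all genes did) with a median of 0.07. In WT 1 C11 cell held 127 of 411 Apoe UMIs and in S303/7A 1 cell held 254 of 1226. The 7 measured tumor and stromal genes lay below 0 in 7 of 7 in both C11 and C06, with medians of -0.57 and -0.73 (48.8% and 50.8% of all genes lay below 0). The part of transcripts from other cells in the genotype values was not tested.

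Penk was the gene of the T cell lists with the largest difference between the libraries. It encodes the precursor of enkephalin peptides, is expressed by stimulated T cells and lies at chromosome 4, 4133531 to 4138819 on the minus strand. Penk averaged 0.0449 CP10K in WT and 0.662 in S303/7A, and the ratio of its summed UMIs was 14.8 (8.90 to 26.5). The difference rested on few cells, since Penk was found in 9 of 306 WT and 23 of 176 S303/7A C11 cells and the top 3 S303/7A cells held 48.4% of its 190 UMIs. Its log2 ratio was 2.39 in C11, 1.71 in C06 and 0.24 in C13. Cd70, the ligand of the co-stimulator CD27, averaged 0.0328 CP10K in WT and 0.239 in S303/7A, and 1 S303/7A cell held 36 of its 88 UMIs there. Ramp1, a subunit of neuropeptide receptors, averaged 0.103 CP10K in WT and 0.417 in S303/7A and was found in 6.86% of WT and 26.7% of S303/7A C11 cells, with no cell holding more than 7 UMIs in either library. Cd200, a ligand of an inhibitory receptor, averaged 0.0425 CP10K in WT and 0.198 in S303/7A (log2 ratio 1.07).

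Hopx was the lowest gene in S303/7A C11 cells. It averaged 1.02 CP10K in WT and 0.156 in S303/7A and was found in 52.9% of WT and 19.3% of S303/7A C11 cells, and the ratio of summed UMIs was 0.159 (0.111 to 0.221). No cell held more than 9 of its UMIs, and its median over cells was 0.763 CP10K in WT and 0 in S303/7A. Hopx lies at chromosome 5, 77086988 to 77115121 on the minus strand, and its log2 ratio was -2.13 in C11, -1.55 in C06, -0.73 in C13 and -1.99 in C11 without the cells lacking CD8 transcripts. Interferon-induced membrane proteins Ifitm3 and Ifitm1 stood at -1.55 and -1.48 in C11, and Ifitm1 at -1.33 in C06 and 1.24 in C13. Ifitm1 was found in 69 WT and 28 S303/7A C11 cells. The gamma chain constant gene Tcrg-C2 averaged 1.57 CP10K in WT and 0.499 in S303/7A (log2 ratio -1.48, and -2.63 in C06). The protease inhibitor gene Lxn stood at -1.72 and -1.66 in the 2 clusters.

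Pttg1 was the only cycle gene past 2-fold between the libraries in C11. Securin transcripts averaged 2.67 CP10K in WT and 1.05 in S303/7A with a ratio of summed UMIs of 0.403 (0.349 to 0.464), and the median over cells was 2.09 CP10K in WT and 0.786 in S303/7A. The gene lies at chromosome 11, 43420250 to 43426251 on the minus strand. Its log2 ratio was -1.27 in C11, -0.34 in C06 and -0.89 in C13, and -1.25 in C11 without the cells lacking CD8 transcripts. The value was thus negative in each of the 3 clusters, and the difference between clusters was not tested. No other mitosis gene was past 2-fold, and the next were Kif2c -0.72, Aurka -0.51, Hmmr -0.49, Ube2c -0.46 and Knl1 -0.46.

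Median ratios of the cycle lists were small between the libraries, while the summed levels of all 4 lists were lower in S303/7A. The mean summed level per C11 cell was 180 CP10K in WT and 158 in S303/7A for mitosis and 94.3 and 87.6 for histones. It was 44.5 and 41.6 for replication and 30.5 and 29.0 for nucleotide synthesis. Of 83 mitosis genes 62 lay below 0 in C11 (48.8% of all genes did), with a median of -0.16. The median was -0.08 when the 3 ranges of the mitosis to replication ordering were weighted equally. It was 0.04 for CD8 T cells chosen by 12 core cycle genes in place of the cluster. That setting picks cells by cycle transcripts, so it cannot show whether the libraries are level in them. For CD8 T cells with at least 5 cycle list UMIs, which nearly all held, the median was -0.50. In C13, by contrast, 62 of 83 mitosis genes lay above 0 (57.0% of all genes did), with a median of 0.12. Replication genes had a median of -0.03 and nucleotide synthesis genes -0.04. Pclaf averaged 9.77 CP10K in WT and 7.52 in S303/7A, Mki67 averaged 2.03 CP10K in WT and 1.73 in S303/7A and Top2a averaged 4.54 CP10K in WT and 3.62 in S303/7A. Histone genes lay above 0 in 24 of 35 (51.2% of all genes did) with a median of 0.21, but the median was -0.14 with a detection minimum of 20% and -0.20 after each cell was thinned to 2000 UMIs, so no direction can be given for histones.

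Chaperone genes, which the mutated factor controls, were close to level in S303/7A C11 cells. Of 24 measured genes 14 lay below 0, against 48.8% of all genes, none was past 2-fold, and the median was -0.13. Hsf1 averaged 0.139 CP10K in WT and 0.104 in S303/7A, and its level says nothing of the mutated codons. The constitutive chaperone Hspa8 averaged 26.0 CP10K in WT and 23.2 in S303/7A, and Hsp90aa1 averaged 5.98 CP10K in WT and 5.44 in S303/7A. The lowest members were Hsph1 -0.60, Dnajb1 -0.47 and Ahsa1 -0.38, an HSP110, an HSP40 and an activator of HSP90. Hspa1a, the inducible HSP70, was found in 4.58% of WT C11 cells with 34 UMIs, 22 of them in 3 cells, and in 3 S303/7A cells with 5 UMIs. Reads of Hspa1a and its near-identical copy Hspa1b cannot be fully told apart. TRiC chaperonin genes had a median of 0.04. The corresponding medians of the chaperone list in C06 and C13 were -0.16 and -0.15, so all 3 clusters lay slightly below 0. In C13 22 of 27 chaperone genes lay below 0, against 43.0% of all genes.

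Effector genes of C11 differed between the libraries in both directions. Of 25 measured genes 15 lay above 0, against 51.2% of all genes, and 10 below, with a median of 0.17. Gzma averaged 2.72 CP10K in WT and 1.05 in S303/7A, and in S303/7A 1 cell held 117 of 188 UMIs. Among C11 cells with CD8 transcripts it averaged 1.56 CP10K in WT and 0.205 in S303/7A, so the log2 ratio moved from -1.29 to -2.44. Gzma stood at -3.19 in C06. Gzmb averaged 11.7 CP10K in WT and 7.28 in S303/7A, with a ratio of summed UMIs of 0.576 (0.544 to 0.610), and its median over cells was 7.29 CP10K in WT and 3.08 in S303/7A. Its log2 ratio was -0.68 with all cells and -0.89 without those lacking CD8 transcripts. Xcl1 averaged 1.44 CP10K in WT and 3.11 in S303/7A (log2 ratio 1.06, 1.28 without those cells) and was found in 15.0% of WT and 35.2% of S303/7A C11 cells. Gzmc went from 0.58 to -0.26 without those cells, which changes its sign. Ifng averaged 2.37 CP10K in WT and 1.88 in S303/7A and Prf1 averaged 1.61 CP10K in WT and 1.92 in S303/7A, both under 2-fold apart.

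**Figure D4:**
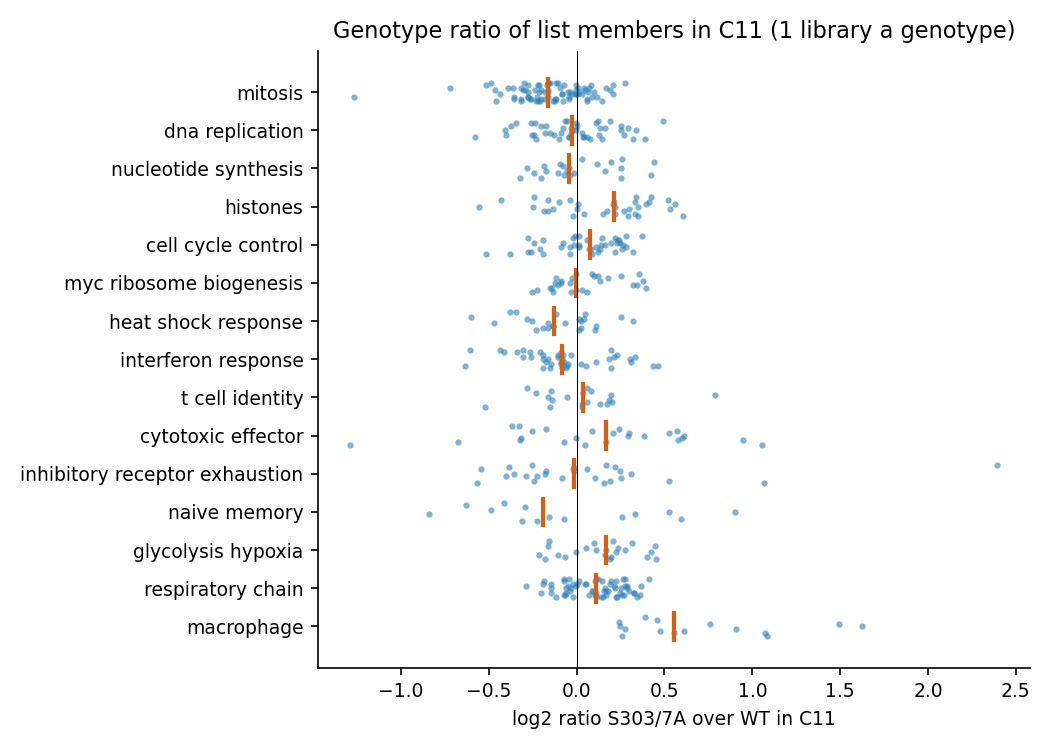
Each point is a measured gene of 1 of 15 lists chosen for the plot, with its log2 ratio of S303/7A over WT within C11 on the x axis, and the bar is the list's median. Of the medians plotted, that of the macrophage list (0.56) lies farthest from 0. Lists not plotted include tumor and stromal genes (-0.57, 7 measured) and gamma delta genes (-0.65, 4 measured).

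Genes of T cell state were close to level between the libraries. Identity genes had a median of 0.03, inhibitory receptors -0.02, naive and memory genes -0.19, and cytokine receptors and co-stimulators -0.07. Pdcd1 averaged 3.65 CP10K in WT and 4.09 in S303/7A and Tox averaged 2.12 CP10K in WT and 1.87 in S303/7A. Within the identity list Trbc1 and Trbc2, the alternative constant genes of the T cell receptor beta chain, stood at 0.79 and -0.23. Glycolysis genes lay above 0 in 16 of 23 with a median of 0.17 (0.21 in C06), and respiratory chain genes in 44 of 65 with a median of 0.11. Over all genes 51.2% lay above 0 and 48.8% below. Interferon response genes lay below 0 in 31 of 44 with a median of -0.09. None of these lists had more than 2 members past 2-fold.

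The share of CD8 T cells in C11 was higher in the WT library, and so was the share of CD8 T cells with transcripts of core cycle genes. C11 held 44.2% (40.4% to 47.9%) of the 693 WT and 28.5% (25% to 32.3%) of the 617 S303/7A cells annotated as CD8 T cells. Each cell was then thinned to 2000 UMIs, without the 11 WT and 5 S303/7A cells that had fewer, and was counted where it held at least 3 UMIs of 12 core cycle genes (Mki67, Top2a, Cdk1, Ccna2, Ccnb2, Birc5, Ube2c, Aurkb, Pclaf, Rrm2, Nusap1 and Cdc20). By that count 38.4% (34.7% to 42.2%) of WT and 21.1% (17.9% to 24.5%) of S303/7A CD8 T cells passed. This count is not independent of the cluster, since 7 of the 12 core genes are among the 12 highest genes of C11 over C06, and 247 of the 262 WT and 122 of the 129 S303/7A cells that passed were C11 cells. Within C11 the share was 81.3% in WT and 69.3% in S303/7A, within C06 3.97% and 1.61%, and within C13 65.2% and 65.5%. At a minimum of 5 core UMIs the CD8 T cell shares were 30.1% and 15.5%, and at 1 they were 60.1% and 42.3%. The share in WT was the higher at each of these minimums. The measure first planned, at least 5 UMIs of all 4 cycle lists, was met by 681 of 682 WT and 612 of 612 S303/7A CD8 T cells and could not separate them, so the core measure was chosen after the data were seen. The animals of a library were pooled, so a difference between the genotypes and a difference between the pooled mice cannot be told apart.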

How the data were processed

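Single tumor cells of WT and S303/7A mice were compared as 1 library per genotype, with groups taken from the labels. In the expression table the authors deposited natural log values, which the numbers themselves show to be ln(1 + UMIs of a gene per 100000 UMIs of the cell). Total UMIs and detected genes are whole counts and the mitochondrial share is a percent in the authors' deposited annotation, per the file headers. The annotation also holds each cell's cluster, class and copy number group, and t-SNE and UMAP coordinates, scores made by the authors that were not used. How cells were filtered, clustered and classed is not stated in the labels or headers. The submitters' processing notes name Cell Ranger, Seurat 3.0, mm10 and GRCm38.

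Undoing the log gave UMI counts, 99.9% of them within 0.1 UMI of whole. Gene numbers matched the deposited ones in 11456 cells, and totals differed by at most 3 UMIs. CP10K, log2 ratios and exact conditional or binomial (Clopper-Pearson) 95% intervals were computed with Python 3.11.15, numpy 2.4.6, scipy 1.17.1 and pandas 2.3.3. C11 held 3103900 UMIs in WT and 2485312 in S303/7A. The members and the gene lists (29 lists, 740 of 749 genes found) were chosen with earlier results of these data known. For each comparison the text names the 12 highest and the 12 lowest log2 ratios, with the same sign in both libraries where clusters are compared, without mitochondrial, ribosomal protein, Gm, Rik and V, D and J genes, and also list members and lineage markers. Single cells picked out for their UMIs, and Nup85, were chosen after their values were seen. Values of some single genes are not reported here.

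No doublet was left out of the main values. As an alternative, the cells with the highest Scrublet scores (scanpy 1.11.5) were left out at the expected rates of 5.32% and 3.84%, 6 WT and 3 S303/7A cells of C11 among them. Copy number group CNV1 held 301 of 306 WT and 175 of 176 S303/7A C11 cells. The measures were tested on simulated data made from C11, with 200 of 7396 genes changed. A true 2-fold change gave a median log2 ratio of 0.90 upward and -0.81 downward. In these data 95.6% of intervals held the true ratio, and 0% of unchanged genes passed 2-fold. The simulated counts varied by counting error only, and a constant level was added to every gene. The simulation therefore cannot show how the measures behave for genes near 0 or for genes whose UMIs lie in few cells. Gene positions come from GENCODE M21 on GRCm38, and all 95 genes looked up were found.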

Additional observations from a re-analysis of the deposited data

Results flagged for a closer look

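Nup85, a nuclear pore gene, was higher in S303/7A than in WT C11 cells, with a log2 ratio of 0.59 (0.236 CP10K in WT and 0.407 in S303/7A), and lower in C06, with a log2 ratio of -0.63 (0.501 and 0.289 CP10K). It was picked out because the ratios of the 2 CD8 T cell clusters point in opposite directions by at least 1.5-fold each. Its ratio in C13 was -0.28. There is 1 library per genotype, so the difference was not tested.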

How the results depend on the processing

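For each comparison 15 or 16 settings were listed. All were recomputed except the setting on UMIs of other lineages, which is described below. The settings without cells lacking CD8 transcripts, without the hemoglobin-rich cell and with 12 core cycle genes were chosen after seeing the data. For C11 against C06, a pseudocount of 1 CP10K gave 54 genes higher and 3 lower by 2-fold, and medians of 0.63 for mitosis, 0.46 for replication, 0.36 for nucleotide synthesis, 0.36 for ribosome biogenesis and -0.34 for T cell identity. A pseudocount of 0.01 gave 575 and 141 genes, and medians of 3.69 for mitosis, 2.0 for replication and 1.95 for histones. Histones stood at 1.59 over genes found in 20% of cells and at 1.67 in thinned cells, which gave 196 higher genes, and WT alone gave 67 lower genes. For C11 against C13, pseudocounts of 1 and 0.01 gave 100 and 1014 genes higher and 192 and 1731 lower, with medians of 2.16 and 5.66 for T cell identity and -3.02 and -4.75 for macrophage genes. Thinned cells gave 385 and 580 genes, since fewer genes could be measured. The macrophage median was -4.82 in WT alone and -3.96 in S303/7A alone. Between genotypes in C11, a pseudocount of 1 gave 2 and 2 genes and one of 0.01 gave 106 and 56. Thinned cells gave 23 lower genes and a macrophage median of 1.18, and CD8 T cells with at least 5 cycle UMIs gave a mitosis median of -0.50. Higher genes made up 64.3% of those past 2-fold, 51.1% in thinned cells and 50.0% with a pseudocount of 1. The shares of CD8 T cells with cycle UMIs were 100% (at least 3 UMIs) and 96.0% (at least 10) in WT, 92.8% (at least 10) and 98.1% (thinned to 1000) in S303/7A, and by core genes 60.1%, 38.4% and 30.1% in WT and 42.3%, 21.1% and 15.5% in S303/7A. Penk reversed to -0.049 for C11 against C13 in WT alone, and Hspa1a reversed to 0.22 between genotypes in CD8 T cells with at least 5 cycle UMIs. The cause was not tested beyond what each setting does by construction. A scale without cycle, ribosomal and mitochondrial genes moved the median of all genes to 0.12 for C11 against C13. Leaving out cells with 2 or more UMIs of other lineages was not run, since it left 53 WT and 0 S303/7A C11 cells. Of the remaining values, 69 counts of genes, 284 medians of the leading lists and 2389 values of named genes stayed within the set limits, and 361 values of named genes moved further. The limits are not defined here, and those of list medians were wide enough to take in changes of sign. Between genotypes these were the histone median with a detection minimum of 20% and in thinned cells, and the mitosis median by 12 core cycle genes. A median within its limit thus need not have kept its direction. Reversal was counted where the value was past 2-fold before the change, 2 of 1498 values, and 48 of 1254 values under 2-fold also changed sign, Gzma, Xcl1 and Gzmc without cells lacking CD8 transcripts among them. No paired analysis was possible because there is 1 library per genotype. Counts of UMIs limit low genes, and pooled mice limit every genotype value.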

Other observations

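Further genes of C11 cells had the following values. Csf2, the gene of the growth factor GM-CSF, was found in 4 WT and 12 S303/7A C11 cells, with 6 and 29 UMIs. Ccl1, a chemokine, had 91 UMIs in 12 WT C11 cells, of which 1 cell held 59, and 160 UMIs in 20 S303/7A C11 cells. Igkc, an immunoglobulin constant gene of B cells, was found in 30 WT and 43 S303/7A C11 cells with 73 and 198 UMIs, and in 25 and 32 cells of C06 with 51 and 113 UMIs. Ltf, a granule gene of neutrophils, had 121 UMIs in 37 WT C11 cells and 16 UMIs in 6 S303/7A C11 cells. Utf1, a chromatin gene of stem cells, was found in 8 WT and 31 S303/7A C11 cells and in 11 and 31 C06 cells.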
